A study of Mus musculus with 19 samples.

Results

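The genes described here are those of the extracellular matrix that encode collagen chains, with 5 further matrix genes: the small leucine-rich proteoglycans Lum (lumican) and Dcn (decorin), the matricellular genes Sparc (osteonectin) and Postn (periostin), and Mgp (matrix Gla protein). They were chosen by symbol and not by any measured value: 44 entries named Col, a number, a and a number, plus the 5 named genes, gave 49 of the 24062 genes in the count table. Of these, 30 passed the filter on low counts in the adult libraries and 46 in the hindgut libraries.

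Collagens are trimers of chains wound into a triple helix, and the chains differ in the structures that they build. Fibrillar chains such as Col1a1, Col1a2 and Col3a1 form the fibrils of connective tissue, type IV chains form the network of basement membranes, type VI chains form beaded filaments, and the FACIT chains (fibril-associated collagens with interrupted triple helices) sit on fibril surfaces. In the gut wall, fibroblasts and smooth muscle cells are known sources of fibrillar and type VI collagen, and epithelial cells add to the basement membrane on which they sit.

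The series holds 15 bulk RNA-sequencing libraries and 1 droplet single-cell library from the mouse. The adult cells came from colon epithelium of mice on a mixed C57BL/6 and 129/Sv background and were sorted on mCherry or GFP. Wild-type stem cells (3 libraries) and regenerating cells (2 libraries) carried an Ascl2 reporter allele, Ascl2(mCh), and the allele Lgr5Dtr-Egfp, which puts the diphtheria toxin receptor and GFP under Lgr5. Regenerating cells followed 4 injections of diphtheria toxin at 50 ug/kg, given every other day to remove Lgr5-positive stem cells; the day of collection is stated for the single-cell library alone, which held mCherry-positive, GFP-negative cells on day 8. Knockout cells (2 libraries) came from Ascl2Fl/Fl mice with Lgr5EGFP-Cre, given 2 mg tamoxifen on days 1 and 2 and 1 mg on day 3. Cre from the Lgr5 locus limits the deletion to Lgr5-expressing cells and their descendants, and the knockout therefore differs from wild type in its Lgr5 allele, reporter and tamoxifen together. The hindgut libraries (2 at each of E11, E12, E14 and E16) held Epcam-positive cells sorted from wild-type CD1 embryos. The labels name the hindgut libraries biological replicates and say no more of separate animals for the adult ones, so p-values measure the spread between these libraries.

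Each library held between 13826958 and 30583908 gene reads. Levels are in CPM (reads of a gene as a share of the TMM-scaled library), set separately for adult and hindgut libraries, given for replicates in order or as mean ± SD (n = 3 for wild type, n = 2 for every other group). Reads were not scaled by transcript length, so levels were compared between libraries and not between genes. Epcam, the sorted surface protein of epithelium, lay at 911 to 1428 CPM in the hindgut and 1886 to 3299 CPM in the adult libraries, and Ascl2 itself, the deleted gene, at 53.8 and 59.2 CPM in the knockout against 104 to 151 CPM in wild type. The deleted part of Ascl2 is not stated, so its reads check the labels only in part. Some libraries stood apart. The wild-type libraries detected 12927 to 14314 genes and 181 to 272 genes by a single read, against 14894 to 17517 and 985 to 1455 in the other adult libraries. Knockout libraries had TMM factors of 0.616 and 0.660 against 1.11 to 1.32 and 51.2 and 51.4% of entries counted as not uniquely aligned against 36.4 to 40.2%, and E16 libraries had 3.09 and 3.50% ambiguous reads against 0.812 to 0.866% at the other ages. E11 replicate 2 held 42.1 CPM of the basal keratin Krt5, against 0.0376 CPM in replicate 1.

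**Figure D1:**
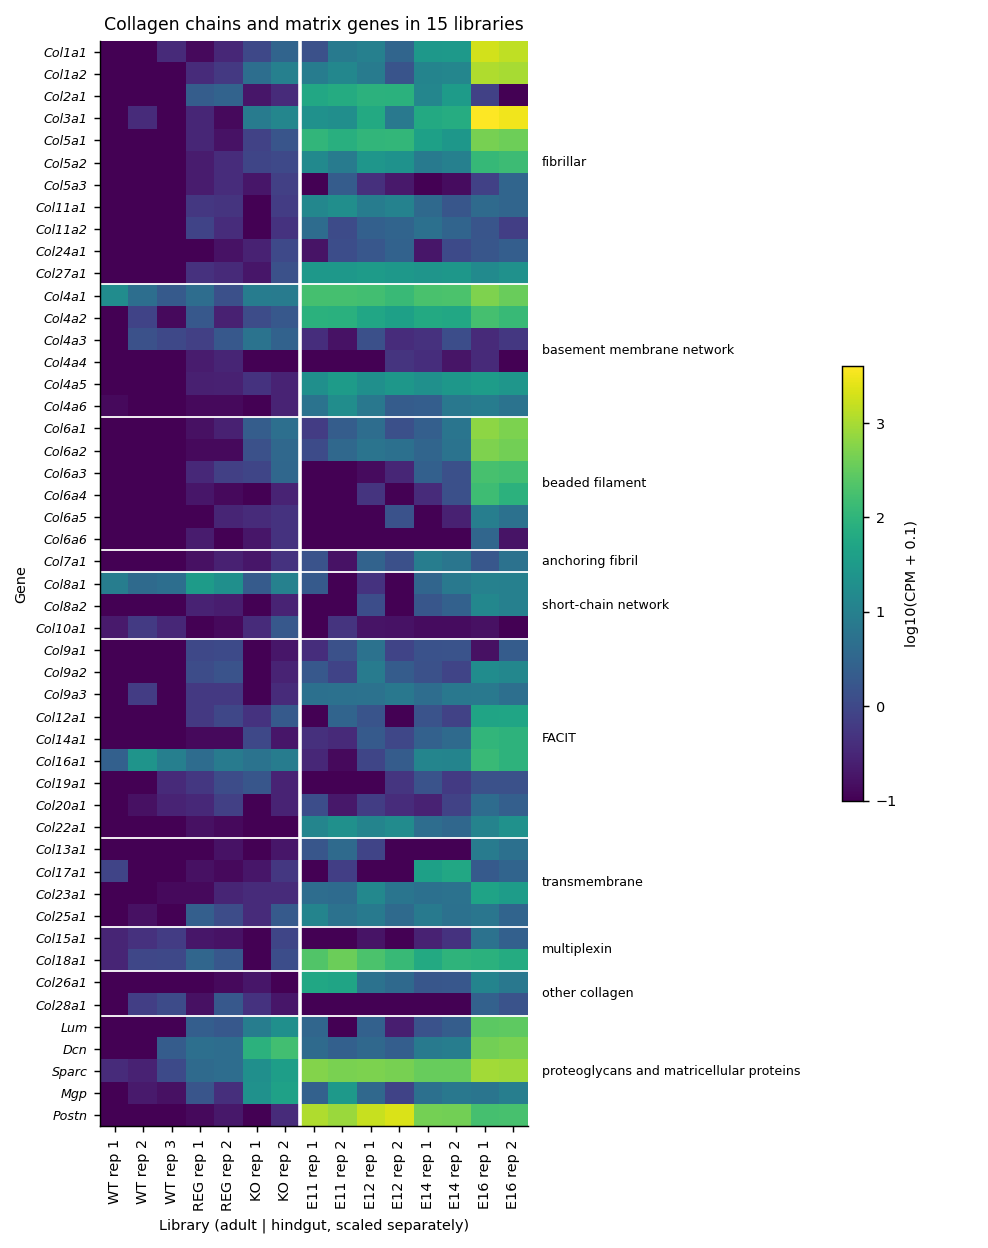
Level of all 49 genes in the 15 bulk libraries, as log10(CPM + 0.1), with 1 column per library and genes grouped by the type of protein. The wild-type columns are dark in nearly all genes, and the E16 columns are bright for fibrillar and beaded-filament chains.

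In embryonic hindgut, the matrix genes as a group were far more abundant at E16 than before. Their summed level was 2538 and 2339 CPM in the E11 libraries, 3029 and 3262 CPM in the E12 libraries, 1424 and 1506 CPM in the E14 libraries, and 12182 and 10075 CPM in the E16 libraries. Both E16 libraries thus lay above all 6 earlier ones, and both E14 libraries below the rest. Much of the earlier sum came from the proteoglycans and matricellular genes, with 2161 and 2609 CPM at E12 and 787 and 769 CPM at E14. Between these ages fibrillar chains went from 351 and 274 to 196 and 217 CPM. Basement membrane chains went from 242 and 201 to 273 and 291 CPM, so the E14 low was not shared by all types. Over the 4 ages, 31 of the 46 tested members differed (edgeR, Benjamini-Hochberg adjusted p below 0.05), beside 63.0% of all genes. From E14 to E16, 23 members rose, where 20.6% of all tested genes did, and 3 fell, beside 19.0% of all genes; 39.6% of all genes were called in either direction. The median log2 fold change was 2.505 over the tested members and 0.0026 over all genes. A member with no read before E16 could pass the filter only through E16, which fixed the direction of its change to E16. Col28a1 was such a member. A member with few reads before E16, such as Col15a1 at 0.373 CPM or less, could be in the same position. How many members and other genes were of either kind was not counted, so 20.6% is no fair measure for them.

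Most member reads at E16 came from fibrillar chains. Their sum was 196 and 217 CPM at E14 and 7602 and 6185 CPM at E16; 5 of 11 chains rose and 1 fell. Col3a1, the chain of type III collagen (chromosome 1, 45311538 to 45349706), stood at 21.2 and 19.0 CPM at E11, 62.2 and 7.01 CPM a day later, 61.5 and 70.5 CPM at E14, and 3965 and 3205 CPM at E16. The E16 libraries did not overlap with any other age, while the E12 replicates lay far apart. The step to E16 was a log2 fold change of 5.76 ± 0.86 (SE, adjusted p = 0.00181).

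Type I collagen is a trimer of Col1a1 and Col1a2 chains. Col1a1 (chromosome 11, 94936224 to 94953042) had 1.28 and 7.66 CPM in the E11 libraries, then 9.83 and 3.10 CPM, 28.2 and 28.9 CPM, and 1919 and 1448 CPM in those of E12, E14 and E16. Col1a2 (chromosome 6, 4505618 to 4541543) had 10.9 ± 3.43, 4.78 ± 4.64, 12.5 ± 0.772 and 1051 ± 99.4 CPM at the same ages, with 1121 and 980.4 CPM in the E16 libraries. Both chains were high in both E16 libraries and in no other library. From E14 they rose by 5.88 ± 0.71 and 6.39 ± 0.60 on the log2 scale (SE, adjusted p = 0.000713 and 0.000248). The number of Col1a1 reads per Col1a2 read was 1.71 and 1.48 at E16, 2.35 and 2.21 at E14, 1.22 and 2.07 at E12, and 0.150 and 0.574 at E11. In the adult knockout libraries it was 0.204 and 0.291, within the range of E11.

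The promoters of Col1a2 and Col3a1 are shown because both genes rose steeply between E14 and E16 in the same libraries. The windows reach from 250 bases before the RefSeq start site to 50 after it (GRCm38.p6). Both are on the plus strand and read 5′ to 3′. Capitals mark the CCAAT box, the GC box GGGCGG and the TATA motif TATAAA on either strand, reverse complements included.
Col1a2, chr6:4505368-4505667: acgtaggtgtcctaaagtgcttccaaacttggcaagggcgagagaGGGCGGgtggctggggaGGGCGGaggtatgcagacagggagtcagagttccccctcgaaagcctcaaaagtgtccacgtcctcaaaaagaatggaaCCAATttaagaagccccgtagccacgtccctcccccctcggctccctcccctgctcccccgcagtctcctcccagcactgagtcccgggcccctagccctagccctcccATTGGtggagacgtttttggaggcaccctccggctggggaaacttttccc
Col3a1, chr1:45311288-45311587: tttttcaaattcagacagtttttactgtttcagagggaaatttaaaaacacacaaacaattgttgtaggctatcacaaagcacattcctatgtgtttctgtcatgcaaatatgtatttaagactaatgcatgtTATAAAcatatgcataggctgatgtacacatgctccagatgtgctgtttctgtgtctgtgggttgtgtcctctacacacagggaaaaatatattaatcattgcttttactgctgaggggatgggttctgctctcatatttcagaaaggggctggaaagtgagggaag
The Col1a2 window held CCAAT at base 142 and its reverse complement at base 251, and GGGCGG at bases 46 and 63. The Col3a1 window held TATAAA at base 134 and neither other motif. Of 32851 RefSeq windows of this length, 37.4% held CCAAT, 35.7% held GGGCGG and 13.6% held TATAAA. Windows were found for 37 members, of which 13 held CCAAT, 22 held GGGCGG and 5 held TATAAA. Further motifs searched on both strands were TGANTCA (1 member window, 7.81% of all windows), the E-box CAGCTG (8 and 16.3%), the TEAD motif GGAATG (4 and 14.7%) and the SMAD motif CAGACA (9 and 21.0%). These are matches of letters, and none was tested for binding.

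The other fibrillar chains followed different courses. Col5a1 and Col5a2, chains of type V collagen that regulate fibril diameter, dipped at E14 before E16. Col5a1 went from 93.4 ± 17.8 CPM at E11 and 109 ± 1.85 CPM at E12 to 34.0 ± 9.13 CPM at E14 and 415 ± 49.5 CPM at E16. It fell from E12 to E14 (log2 fold change -1.68 ± 0.21, adjusted p = 0.00142) and then rose by 3.61 ± 0.22 (adjusted p = 4.54e-05). Col2a1, the cartilage and notochord collagen, went the other way, with 57.1 and 66.5 CPM in the E11 libraries, 91.3 and 85.6 CPM in those of E12, 12.9 and 34.1 CPM in those of E14, and 0.678 and 0 CPM in those of E16. Each E16 library lay below all earlier ones (E16 minus E11 -7.37 ± 0.76, adjusted p = 0.000153). Col11a1, which pairs with type II collagen in cartilage, also fell from 16.1 ± 4.05 CPM at E11 to 3.45 ± 0.520 CPM at E16 (-2.22 ± 0.49, adjusted p = 0.00613). Across the same ages the summed level of 7 notochord and cartilage markers, of which 5 were tested, was 127 to 160 CPM at E11, 107 to 166 CPM at E12, 83.9 to 96.1 CPM at E14 and 24.9 to 36.5 CPM at E16; its part in the fall of Col2a1 was not tested.

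Beaded-filament chains went from almost no reads to high levels. The 6 type VI chains summed to 1.58 to 14.1 CPM in the 6 libraries up to E14 and to 1533 and 1168 CPM in those of E16, and 4 of 5 tested chains rose from E14 to E16. Col6a1 and Col6a2 lie next to each other on chromosome 10, with 85161 bases between them. Col6a1 (chromosome 10, 76708792 to 76726044) stood at 2.35 and 6.01 CPM at E14 and 669 and 503 CPM at E16, a log2 fold change of 7.12 ± 0.67 (adjusted p = 0.000251). Col6a2 stood at 3.00 and 5.52 CPM and then 520.1 and 412 CPM (6.77 ± 0.48, adjusted p = 7.38e-05). Col6a3, the long chain of the classic trimer, was at 0 in both E11 libraries and at 182 and 158 CPM at E16, at least 3281-fold higher. Col6a4, which lies in a row with Col6a5 and Col6a6 on chromosome 9, was likewise at 0 at E11 and at 149.7 and 89.9 CPM at E16, at least 2350-fold higher. All 5 tested type VI chains were called higher at E16 than at E11, Col6a5 not without either E16 library (adjusted p up to 0.0742). Col6a6, not tested, had 3.14 and 0.0752 CPM at E16 and no read earlier.

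Among the 9 FACIT chains, 5 rose from E14 to E16 and none fell. Col14a1 stood at 3.19 ± 0.882 CPM at E14 and 99.6 ± 8.41 at E16 (log2 fold change 4.96 ± 0.38, adjusted p = 0.000105). Col16a1 rose at both later steps, from 1.43 ± 0.890 CPM at E12 to 12.1 ± 0.115 CPM at E14 and 112 ± 26.4 CPM at E16 (3.07 ± 0.46 and 3.21 ± 0.43, adjusted p = 0.00312 and 0.0011). Col12a1, at 1.05 ± 0.487 and then 49.8 ± 1.30 CPM, passed (5.56 ± 1.68, adjusted p = 0.0332) but lost the call without any 1 of the E14 or E16 libraries, at up to 0.172. Col22a1, a collagen of tissue junctions, dipped instead: 14.1 ± 3.22 CPM at E12, 3.86 ± 0.703 at E14 and 16.3 ± 6.98 at E16 (-1.87 ± 0.43 and then 2.07 ± 0.43). Its fall lost the call without E12 replicate 2 or either E14 library (adjusted p up to 0.118), and its rise without E14 or E16 replicate 2 (up to 0.0657).

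The leucine-rich proteoglycans, which bind fibrils and limit their growth, rose at the same step. Dcn (chromosome 10, 97479500 to 97518163) had 3.72 and 2.43 CPM, 3.52 and 2.30 CPM, 7.49 and 8.83 CPM, and 422 and 465 CPM from the earliest age to the latest. It rose from E12 to E14 by 1.49 ± 0.25 on the log2 scale (adjusted p = 0.00446, and 0.0617 without the E16 libraries) and from E14 to E16 by 5.76 ± 0.25 (adjusted p = 1.37e-05). Lum, its neighbour at 47337 bases, stood at 1.75 ± 0.571 CPM at E14 and 283 ± 3.92 at E16 (7.33 ± 1.17, adjusted p = 0.00241), and before E14 its replicates ranged from 0 to 3.16 CPM. Sparc, which binds collagen and helps its processing, was abundant throughout: 547 and 463, 488 and 457, 339 and 334, and 917 and 830.2 CPM. Its E14 libraries were the lowest and its E16 libraries the highest, and both steps passed (-0.49 ± 0.10, adjusted p = 0.0111, lost without E12 replicate 1 or either E14 library at up to 0.0916, and 1.38 ± 0.10, adjusted p = 9.84e-05). Mgp, an inhibitor of calcification, reached 29.3 CPM in E11 replicate 2 and 0.732 to 9.10 CPM in the other 7 libraries, and no age step passed.

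**Figure D2:**
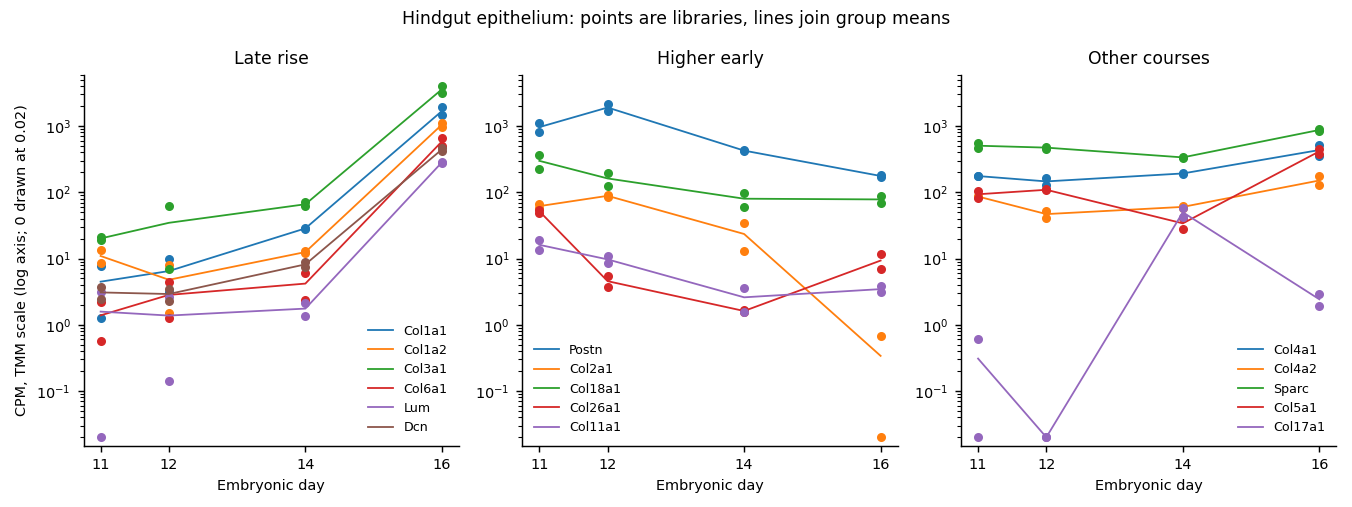
CPM (log axis, 0 drawn at 0.02) against embryonic day for 16 members, with 1 point per library and lines through group means. Col3a1 runs from 20.1 CPM at E11 to 3585 CPM at E16, Postn from 964 down to 176 CPM, and Col17a1 peaks at E14 with 49.9 CPM.

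Postn, a matricellular protein that binds type I collagen, was high early and ran against the members above. Its libraries held 1111 and 817 CPM (E11), 1662 and 2149 CPM (E12), 435 and 417 CPM (E14), and 172 and 181 CPM (E16). It rose from E11 to E12 by 0.98 ± 0.16 (adjusted p = 0.028), a call lost without E12 replicate 2 or any 1 of the E14 or E16 libraries (up to 0.0903). It then fell by 2.16 ± 0.17 on the log2 scale to E14 (adjusted p = 0.000271) and by 1.27 ± 0.17 to E16 (adjusted p = 0.00103). Col18a1, whose end fragment is endostatin, fell over the whole course, from 228 and 369 CPM at E11 to 87.3 and 68.8 CPM at E16 (-1.93 ± 0.33, adjusted p = 0.00193), while no single step passed: 80.0 ± 26.9 CPM at E14 and 78.0 ± 13.1 at E16 differed by less than their spread. Col26a1 was highest at E11, with 54.6 and 48.9 CPM, fell to 5.41 and 3.69 CPM at E12 (-3.51 ± 0.35, adjusted p = 0.00662), then to 1.57 and 1.66 CPM at E14, and rose again to 11.7 and 6.92 CPM at E16 (2.53 ± 0.35, adjusted p = 0.00136).

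The main chains of the basement membrane network were present at every age. Col4a1 (chromosome 8, 11198423 to 11312889) had 176 and 175, 162 and 129.7, 187 and 198, and 510.1 and 359 CPM in order of age. Col4a2 (chromosome 8, 11312805 to 11449287) stood at 88.2 and 84.4, 52.2 and 41.5, 62.7 and 57.7, and 174 and 128 CPM. Both rose at the last step, by 1.18 ± 0.17 and 1.33 ± 0.18 on the log2 scale (adjusted p = 0.00173 and 0.00113). The number of Col4a1 reads per Col4a2 read lay between 2.82 and 3.43 in the 6 libraries from E12 on and at 2.00 and 2.08 at E11. At the first step Col4a2 fell (-0.88 ± 0.18, adjusted p = 0.0469, a call lost without any 1 of the other libraries except E11 replicate 2, up to 0.157), and Col4a1 had -0.27 ± 0.17 (adjusted p = 0.431). Of the other chains of the network, Col4a5 stayed within 19.6 to 35.1 CPM at all ages with no step called, Col4a6 ranged from 2.13 to 17.8 CPM, and Col4a3 and Col4a4 were at 1.23 CPM or less.

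Col4a1 and Col4a2 face away from each other from a shared start region. It is shown because both genes rose from E14 to E16, although from E11 to E12 only Col4a2 was called, as lower. Both windows are from RefSeq (GRCm38.p6) and read 5′ to 3′ on the gene's own strand, minus for Col4a1 and plus for Col4a2. They overlap by 78 bases, their start sites lie 21 bases apart, and the annotated genes overlap by 85 bases. Capitals mark the same 3 motifs on either strand.
Col4a1, chr8:11312777-11313076: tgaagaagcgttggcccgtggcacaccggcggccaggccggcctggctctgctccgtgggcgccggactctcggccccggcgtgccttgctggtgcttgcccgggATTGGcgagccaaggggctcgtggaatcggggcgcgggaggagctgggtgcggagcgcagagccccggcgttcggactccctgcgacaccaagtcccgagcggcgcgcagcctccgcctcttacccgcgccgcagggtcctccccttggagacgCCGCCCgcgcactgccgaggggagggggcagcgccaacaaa
Col4a2, chr8:11312555-11312854: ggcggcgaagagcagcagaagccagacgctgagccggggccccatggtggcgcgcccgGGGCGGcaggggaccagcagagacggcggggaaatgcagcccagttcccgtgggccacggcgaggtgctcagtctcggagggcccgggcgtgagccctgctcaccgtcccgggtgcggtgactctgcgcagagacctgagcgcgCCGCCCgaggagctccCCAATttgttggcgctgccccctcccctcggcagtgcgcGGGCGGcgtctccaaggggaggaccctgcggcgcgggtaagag
The Col4a1 window held CCAAT in reverse complement at base 106 and GGGCGG in reverse complement at base 260. The Col4a2 window held CCAAT at base 219 and GGGCGG at bases 59 and 258, and in reverse complement at base 203. Neither window held TATAAA. Without a stated strand setting, reads from the 85 shared bases cannot be assigned to 1 gene.

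Col17a1, a transmembrane collagen of hemidesmosomes, the junctions that fix basal epithelial cells to the basement membrane, was high at 1 age. It had 0 and 0.617 CPM at E11, no read at E12, 41.7 and 58.2 CPM at E14, and 1.91 and 2.93 CPM at E16. Both E14 libraries lay above all others, at least 939-fold over E12 (adjusted p = 0.00215). The fall to E16 was -4.37 ± 0.89 on the log2 scale (adjusted p = 0.00901), a call lost with DESeq2 and without E14 replicate 2 or either E16 library (up to 0.0787). Col7a1, which forms the anchoring fibrils below hemidesmosomes, stood at 8.84 and 6.26 CPM at E14 and 0.0649 to 5.42 CPM at other ages, with no step called. Of 8 genes of hemidesmosomes and basal epithelium, a list chosen after their values were seen, 4 rose from E12 to E14 and none fell: Itga6, Plec, Itgb4 and Trp63. Trp63, a regulator of stratified epithelium, stood at 9.15 and 4.25 CPM at E12, 90.6 and 144 CPM at E14 and 0 at E16, and Itgb4, the hemidesmosome integrin, at 7.66 and 5.16, 70.5 and 72.8, and 66.8 and 58.3 CPM. E11 replicate 2, the library of that age with reads of Col17a1, held 39.5 CPM of Trp63, and replicate 1 held 3.76 CPM. The part of such cells in the Col17a1 level was not tested. Of the other transmembrane collagens, Col23a1 rose from 4.96 and 5.31 CPM at E14 to 46.2 and 35.1 CPM at E16 (2.98 ± 0.43, adjusted p = 0.00152), Col13a1 from 0 to 7.95 and 4.89 CPM, and Col25a1 had no step called.

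**Figure D3:**
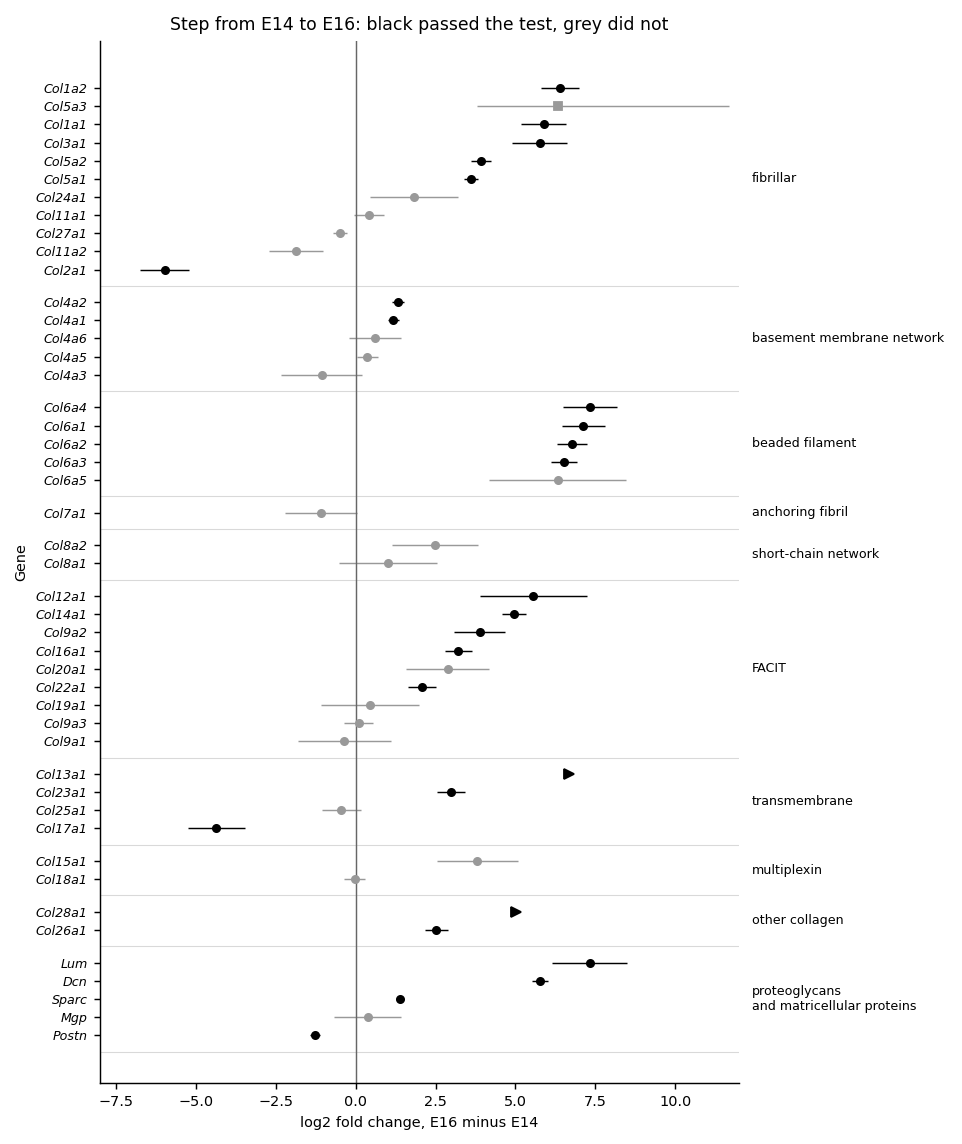
Log2 fold change from E14 to E16 for the 46 tested members, grouped by type of protein. Circles are fitted values with SE, the square is a read ratio with its 95% interval, triangles are lower bounds for genes without reads at E14, and black marks adjusted p below 0.05; Col6a1 to Col6a4 lie between 6.51 and 7.33 and Col2a1 at -5.97.

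The earlier steps involved fewer members, and also fewer of all genes, than the step from E14 to E16. From E11 to E12, Postn rose and Col4a2 and Col26a1 fell, 1 and 2 of 46 members beside 1.76 and 0.874% of all tested genes, 2.63% together; DESeq2 called 10, beside 14.8% of all genes, and edgeR had 15 with an unadjusted p below 0.05, as had 3301 of 16481 genes. From E12 to E14, 6 of 46 members rose and 8 fell, beside 14.4 and 13.9% of all genes, 28.3% together. The members thus stayed near the share of all genes at that step. The rises were Col17a1, Col6a3, Col16a1, Col1a1, Dcn and Col14a1, and the falls were Postn, Col2a1, Col11a1, Col22a1, Col5a1, Col26a1, Col5a2 and Sparc. The 14 calls became 7 without E14 replicate 1 and 8 without replicate 2, and without the E16 libraries Dcn, Col6a3, Col1a1 and Col14a1 lost theirs (adjusted p = 0.0617, 0.114, 0.0932 and 0.311). From E11 to E16, 25 members rose and 6 fell, beside 29.6 and 26.2% of all genes, 55.7% together. The 6 were Col2a1, Col26a1, Postn, Col11a1, Col18a1 and Col27a1, and Col27a1 lost its call in 8 of the alternatives tried (up to 0.217).

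Markers of other cell types changed at the same step as the collagens, where 20.6% of all tested genes rose and 19.0% fell. From E14 to E16, 12 of 17 fibroblast and mesenchyme markers rose and their sum went from 109.3 CPM in both E14 libraries to 1003 and 1055 CPM. All 9 smooth muscle markers rose (sum 55.5 and 66.1 to 2653 and 2839 CPM), as did 5 of 8 endothelial markers (6.39 to 7.14 and then 131 to 139 CPM) and 5 of 7 immune markers (28.2 to 30.5 and then 1257 to 1322 CPM). Pdgfra, a receptor of fibroblasts, stood at 6.44 and 9.83 CPM and then 71.8 and 50.6 CPM without passing (adjusted p = 0.0816), and Myh11, the smooth muscle myosin, at 7.05 and 3.73 and then 415 and 325 CPM. Of 10 epithelial markers, 5 rose and 1 fell, and their sum went from 7553 and 7633 to 9898 and 9952 CPM; Epcam, one of them, stood at 1428 and 1393 CPM and then 1176 and 1273 CPM. The share of these cells in the matrix signal was not tested, and in bulk libraries more cells of a type and more RNA per cell cannot be told apart.

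Partner genes showed how the rest of the pathway behaved. Beside them, 20.6% of all tested genes rose and 19.0% fell from E14 to E16. From E12 to E14 these shares were 14.4 and 13.9%. Of 29 tested genes for collagen modification, folding and cross-linking, 14 rose and 2 fell from E14 to E16. Lox, an enzyme that starts cross-links, stood at 0.479 and 0.456 CPM and then 127 and 97.96 CPM (log2 fold change 7.90, adjusted p = 6.64e-05), whereas Serpinh1, the collagen chaperone HSP47, was already at 424 and 463 CPM at E14 and reached 594 and 568 CPM (0.39, adjusted p = 0.00869). Among 8 tested receptors 4 rose, with the fibroblast collagen receptor Ddr2 at 0.218 and 0.166 and then 42.4 and 30.0 CPM. Of 23 other matrix glycoproteins and proteoglycans, 16 rose and 4 fell, and of 11 tested proteases and inhibitors 5 rose and 1 fell. Basement membrane partners moved differently: 10 of 15 rose and none fell from E12 to E14, and 4 rose and 9 fell from E14 to E16. The laminin chain gene Lama5 went from 65.3 and 62.1 CPM at E12 to 167 and 184 at E14 and 61.9 and 56.9 at E16, while Nid1, a linker of laminin and type IV collagen, went from 12.3 ± 1.74 CPM at E14 to 106 ± 9.58 CPM at E16.

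In adult wild-type stem cells, matrix transcripts were near the limit of detection. All 49 members summed to 29.8, 38.0 and 23.7 CPM in the 3 libraries, only 9, 15 and 16 of them had a read, and 28 had none in any library, beside 36.6% of all genes in the table. The reads came mostly from Col16a1, at 2.44, 24.2 and 9.71 CPM, Col4a1, at 17.0, 4.44 and 1.92 CPM, and Col8a1, a short-chain network collagen, at 8.78, 3.80 and 4.55 CPM. The fibrillar and type VI chains that were high at E16 had few or no reads: Col1a1 had 0, 0 and 0.251 CPM, Col3a1 0, 0.263 and 0 CPM, and Col1a2, Lum and all type VI chains were at 0. In the regenerating libraries the sum was 72.1 and 59.3 CPM, and in the knockout libraries 189 and 348 CPM.

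Knockout and wild-type cells differ in Ascl2 and also in Lgr5 allele, reporter and tamoxifen. Their comparison therefore cannot assign a change to the loss of Ascl2 alone. Of the 30 tested members, 15 rose, where 18.8% of all tested genes did, and none fell, beside 17.4% of all genes; 36.2% were called in either direction. The median log2 fold change was 5.41 over tested members and -0.02 over all genes. A member at 0 in wild type could pass the filter only through reads in another group, and 13 of the 30 were at 0 in all 3 wild-type libraries, as were 310 of 13911 tested genes. Of these, 10 of the 13 members and 187 of the 310 genes (60.3%) were called higher in the knockout, so 10 of the 15 calls are read against that share. The other called members, Mgp, Col3a1, Col25a1, Dcn and Sparc, had few wild-type reads and could also have passed the filter through another group. How many of all genes were of that kind was not counted, so 18.8% is no fair measure for any of the 15. By type, 4 of 4 tested proteoglycans and matricellular genes rose, 6 of 8 fibrillar chains, 3 of 3 beaded-filament chains, 1 of 6 FACIT chains and 1 transmembrane chain, and none of 3 basement membrane chains.

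Dcn, low in every wild-type library, was abundant in both knockout libraries. It stood at 91.8 and 161 CPM against 0, 0 and 2.10 CPM in wild type (log2 fold change 7.51 ± 1.35, adjusted p = 0.00273). Mgp stood at 21.6 and 42.5 CPM against 0, 0.117 and 0.0628 CPM (8.95 ± 1.03, adjusted p = 0.000257). Sparc stood at 19.6 and 38.4 CPM against 0.264, 0.175 and 0.974 CPM (5.94 ± 0.76, adjusted p = 0.000455). In each of these genes both knockout libraries lay above every wild-type library, and replicate 2 above replicate 1. Lum, at 8.88 and 19.2 CPM, had no wild-type read and was at least 468-fold higher (adjusted p = 0.00035).

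Fibrillar and type VI chains were also higher in knockout replicate 2 than in replicate 1. Col3a1 stood at 8.15 and 12.6 CPM (log2 fold change 6.80 ± 1.55, adjusted p = 0.00872, and 0.0573 without knockout replicate 2). Col1a2, at 4.44 and 10.1 CPM, was at least 242-fold higher than the wild-type libraries at 0 (adjusted p = 0.00162), Col6a1, at 2.17 and 4.76 CPM, at least 116-fold (adjusted p = 0.00648), Col6a2 at least 79.1-fold and Col6a3 at least 68.4-fold. Col1a1, the partner of Col1a2, had 0.906 and 2.93 CPM and did not pass (4.46 ± 2.01, adjusted p = 0.116). Col5a1, Col5a2, Col12a1, Col27a1, Col25a1 and Col2a1 also passed, all at 0.0906 to 1.92 CPM in the knockout libraries, and each lost the call in 4 to 11 of the 12 alternatives. Without knockout replicate 2 the 15 calls became 7, and without either regenerating library, which enter the same fit, 9; Lum, Mgp, Sparc, Dcn, Col1a2 and Col6a1 kept theirs in all 12 alternatives. None of the 3 tested type IV chains was called. Col4a2, at 1.09 and 1.74 against 0, 0.731 and 0.0314 CPM, and Col4a3, at 5.43 and 2.75 against 0, 1.29 and 0.911 CPM, lay above all wild-type libraries without passing (2.45 ± 1.88 and 2.48 ± 1.48, adjusted p = 0.346 and 0.228). Col4a1 stood at 8.33 and 8.06 CPM (0.07 ± 0.90, adjusted p = 0.961), inside the wild-type range, and its direction flipped with the scaling (-0.91 by library size, where the median of all genes moved to -1.001).

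**Figure D4:**
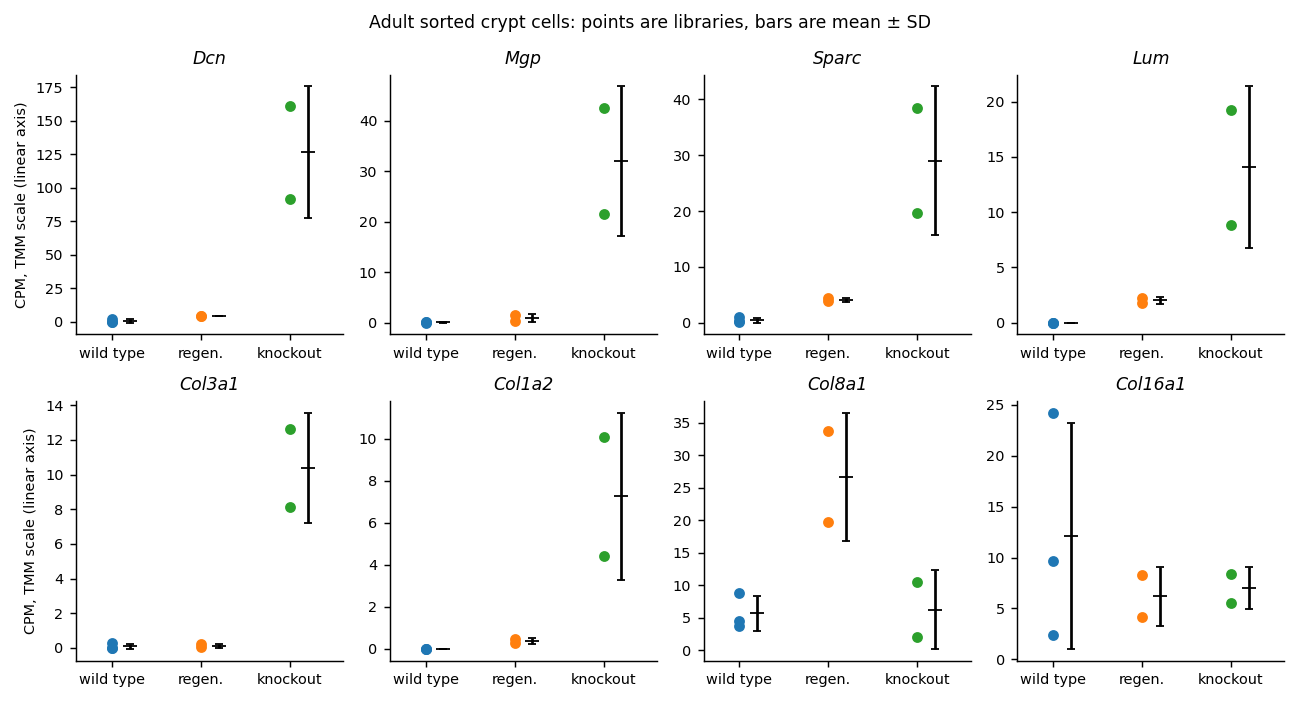
CPM (linear axis) of 8 members in the adult libraries, with 1 point per library and mean ± SD beside them (n = 3 wild type, n = 2 regenerating, n = 2 knockout). Dcn, Mgp, Sparc, Lum, Col3a1 and Col1a2 are high in both knockout libraries, Col8a1 is highest in the regenerating libraries and Col16a1 overlaps in all groups.

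Markers of some other cells lay higher in the knockout libraries as well, where 18.8% of all tested genes were called higher and 17.4% lower than in wild type. The 17 fibroblast and mesenchyme markers summed to 25.8 and 18.3 CPM in the knockout, 7.69 and 7.76 CPM in regenerating and 4.62 to 8.48 CPM in wild-type libraries, and 4 of 6 tested rose against wild type. Pdgfra was at 1.54 and 1.74 CPM against 0 in all wild-type libraries, and 12 to 15 of the 17 markers were at 0 in each wild-type library against 1 to 7 in the others. A marker at 0 in all wild-type libraries could pass the filter only through another group and could not be called lower. The shares of all genes are no fair measure for such markers. Smooth muscle markers summed to 39.4 and 33.7 CPM against 6.28 to 16.4 CPM in wild type, with 1 of 7 tested higher, and immune markers to 287 and 97.5 CPM against 0.906 to 36.4 CPM, with 1 of 6 higher. Sums of endothelial markers (4.22 to 6.70 against 1.94 to 9.03 CPM) and mesothelial markers (3.53 to 3.85 against 2.41 to 4.65 CPM) lay within the wild-type range, and none passed. The 10 epithelial markers summed to 24768 and 22467 against 16186 to 18450 CPM, but 3 rose and 4 fell, with a median log2 fold change of -0.58. Their part in the rise of matrix genes was not tested, and detection of rare transcripts, lower in all 3 wild-type libraries, cannot be told apart from the group. Of the partner lists, 9 of 18 tested matrix glycoproteins rose and 1 fell. Among them was Bgn, the leucine-rich proteoglycan biglycan, at 2.54 and 4.86 CPM against 0, so it too could not be called lower. Of 15 tested enzymes, 1 rose and 4 fell, beside 18.8 and 17.4% of all genes, and P4hb, a subunit of collagen prolyl hydroxylase, fell (log2 fold change -1.99, adjusted p = 0.000211).

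Regenerating against wild-type cells shows the state of sorted cells after toxin beside untreated ones. Lum alone passed, 1 of 30 members beside 0.302% of all tested genes higher and 0.0288% lower, 0.331% together. It had 2.24 and 1.77 CPM and no wild-type read, at least 67.3-fold higher (adjusted p = 0.0335), and the call was lost in 8 of 12 alternatives (up to 0.185), among them leaving out wild-type replicate 1 or 3 or any 1 of the regenerating or knockout libraries. Of the 30 members, 16 had an unadjusted p below 0.05, as had 1460 of 13911 genes, and DESeq2 called 7 members, beside 2.73% of all genes it tested. No wild-type read was found for 13 of the 30, Lum among them, or for 310 of the 13911 genes. Such genes could pass the filter only through another group. Their part in these counts was not determined, so the shares of all genes are no fair measure for them. Dcn stood at 4.67 and 4.38 CPM against 0, 0 and 2.10 CPM (2.70 ± 1.20, adjusted p = 0.477), and Sparc at 3.83 and 4.38 CPM against 0.264, 0.175 and 0.974 CPM (3.12 ± 0.70, adjusted p = 0.14). In both genes the regenerating libraries lay above all wild-type libraries without passing the test; without wild-type replicate 3 both passed, with adjusted p down to 0.0117 over the alternatives for Dcn.

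A few members stood out by level in the regenerating libraries and were chosen after their values were seen. Col8a1 stood at 33.6 and 19.7 CPM, above 3.80 to 8.78 CPM in wild type and 1.99 and 10.5 CPM in the knockout (log2 fold change 2.22 ± 0.66 against wild type, adjusted p = 0.252, and 0.0374 with DESeq2). The cartilage chains Col2a1, Col9a1 and Col9a2 had 2.21 and 2.80, 0.897 and 0.966, and 1.08 and 1.39 CPM and no wild-type read (adjusted p = 0.14, 0.245 and 0.245). In the knockout libraries these 3 chains lay at 0 to 0.275 CPM. Col16a1, at 4.13 and 8.25 CPM, lay within the wild-type range.

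Knockout against regenerating cells, which shares its groups with both comparisons above, called 4362 of 13911 tested genes (31.4%). Of these, 2139 were higher (15.4% of all tested genes) and the rest, a similar number, were lower. Of the 30 tested members, 6 were called higher and none lower. They were Mgp (log2 fold change 5.08 ± 0.98, adjusted p = 0.00456), Col3a1 (6.36 ± 1.82, 0.0268), Dcn (4.80 ± 1.40, 0.0293), Col1a2 (4.25 ± 1.22, 0.0362), Sparc (2.82 ± 0.78, 0.0228) and Lum (2.80 ± 0.81, 0.0364), the adjusted p-values from edgeR. The 2 groups did not overlap in any of the 6, which adds no support because the 6 were chosen by the call. Col3a1 in the regenerating libraries, at 0.209 and 0.0322 CPM, was as low as in wild type, whereas Dcn and Sparc lay between the other 2 groups. A member as low as Col3a1 in both other groups could have passed the filter through the knockout alone, which would fix its direction. How many members and other genes were of that kind was not counted, so 15.4% is no fair measure for them. Mgp kept its call in all 13 alternatives; 1 member was called without either regenerating library and 2 without either knockout library, of which 1 without replicate 2 was a fall.

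The single-cell library shows which cells carried these transcripts on day 8 of regeneration. It had no replicate, so no test was made, and intervals (95%, exact) and upper limits cover counting error only. Of 6794880 barcodes in the matrix, 4050 had 1000 or more UMIs (unique molecular identifiers, 1 per captured transcript) and 3398 of these, with 20% or less mitochondrial UMIs, were read as cells, at a median of 20638 UMIs. Of the 49 members, 22 had a UMI in a cell, with 1522 of 81513700 UMIs, and 965 cells (28.4%) had any. Summed over members, the level was 18.7 CPM of UMIs in cells and 18.9 in barcodes with 1 to 100 UMIs, which hold free RNA. Nearly all cells were epithelial: 98.8% had 3 or more of 10 epithelial markers, 2 cells had 3 or more of 17 mesenchyme markers, and 9 of those 17 had no UMI.

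Several members that rose at E16 or in the knockout cells had few or no UMIs. Col1a2, Col3a1, Col6a1, Col6a2, Col6a3 and Dcn had 0 UMIs in 3398 cells, as had Postn, which fell at E16. A count of 0 allows a share of up to 0.109% of cells with a UMI (upper bound of the exact 95% Clopper-Pearson interval). It allows up to 0.0453 CPM (exact Poisson), and both limits are for counting error only. Lum and Col1a1 had 1 UMI each and Sparc 2. In the bulk regenerating libraries, made with another chemistry and with no stated day, Dcn and Sparc lay near 4 CPM.

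Mgp, Col8a1, Col16a1, Col4a1 and Col18a1 made up most member UMIs. Mgp had 479 UMIs in 244 cells, Col8a1 367 in 238, Col16a1 327 in 297, Col4a1 131 in 117 and Col18a1 95 in 90. In free RNA Mgp lay at 5.93 CPM (4.15 to 8.21) against 5.88 in cells, and Col16a1 at 3.79 (2.40 to 5.68) against 4.01, while Col8a1 lay at 1.81 (0.904 to 3.24) against 4.50 (4.05 to 4.99). Mgp and Col8a1 UMIs were bunched in few cells: Mgp reached 10 UMIs in 1 cell, with 54 cells at 3 or more, and Col8a1 reached 8. Col16a1 was spread thinly, with 1 UMI in 269 of its 297 cells. All 54 cells with 3 or more Mgp UMIs had Epcam UMIs, and none had a UMI of Pdgfra, Col1a2 or Ptprc. Lgr5 was found in 24.1% of them, against 3.39% of cells without Mgp, at median depths of 27522 and 19939 UMIs.

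Levels differed between ranges of cells. Ranges were set by the number of list genes with a UMI, at thresholds chosen after seeing the data: 4 of 7 absorptive genes (266 cells), otherwise 4 of 6 stem and cycling genes (909), otherwise 5 of 8 secretory genes (927), and the rest (1296). These are ranges and not cell types: 199, 1147 and 868 cells lay at a threshold or 1 gene below it, and the stem and cycling range had a median of 3 secretory genes. Mgp stood at 9.97 CPM (8.87 to 11.2) in the stem and cycling range, 2.53 (1.86 to 3.38) in the secretory range and 0.132 (0.00335 to 0.737) in the absorptive range. Col8a1 was highest in the secretory range, with 1.51 (1.10 to 2.01), 11.7 (10.2 to 13.4) and 0.661 (0.215 to 1.54) in the same order of ranges. These intervals do not cover the bunching of Mgp and Col8a1 UMIs in few cells and are too narrow for it, so the ranges were not tested against each other. Col16a1, at 4.72, 3.14 and 1.85, and Col4a1, at 2.01, 1.16 and 0.264, were lowest in the absorptive range. Median depth was 30627, 14301 and 23419 UMIs per cell in the stem and cycling, secretory and absorptive ranges.

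**Figure D5:**
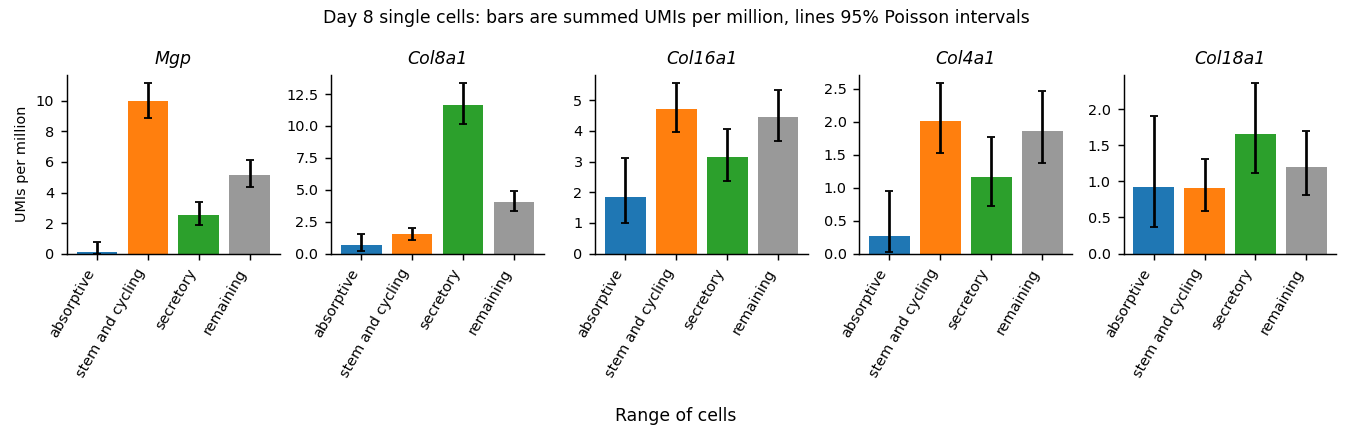
CPM of 5 members in 4 ranges of Day 8 cells (266 absorptive, 909 stem and cycling, 927 secretory and 1296 remaining), with exact 95% Poisson intervals of the summed counts. Mgp is highest in the stem and cycling range and Col8a1 in the secretory range.

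Cells with several members were rare and epithelial. Of 125 cells with 2 or more members, 13 had 3 or more; each of the 13 had 7 to 9 of the epithelial markers and no mesenchyme marker. Doublets were not called, and the 13 cells had 18770 to 59757 UMIs.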

How the data were processed

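RNA was measured in 7 adult and 8 hindgut bulk libraries and 1 single-cell library; 3 ChIP-seq libraries were not used here. Bulk values are the read counts the authors deposited, without normalization, by gene symbol; STAR 2.5.3a and HTSeq stand in the submitters' processing notes, and annotation release and strand are not given in the sources used here. Single-cell values are deposited UMI counts, with Cell Ranger 3.0.2 in the same notes; barcodes with 1000 or more UMIs and at most 20% mitochondrial UMIs were kept. After filterByExpr and TMM, edgeR 4.0.16 (quasi-likelihood, R 4.3.3) was run once on adult and once on hindgut libraries, with two-sided p-values adjusted by Benjamini-Hochberg across the genes tested, at 0.05. SE is the log2 fold change over the root of F. The scripts were tested on simulated data. Where a group had no reads, the fold is a lower bound with 3 counts put in for that group; with 1 to 3 counts it is a ratio with its 95% interval. Coordinates and promoter windows come from RefSeq (GRCm38.p6). Replicates of a group differed by more than counting noise. Members and lists were chosen with earlier results of these data known, and the basal epithelium list and the ranges of cells after their values were seen. Singly described are 14 members and, per comparison, the 6 largest rises and falls among called members at 1 CPM or more, with others taken after their values were seen. Lists held 35 enzymes, 10 receptors, 13 proteases and inhibitors, 15 basement membrane partners, 23 matrix glycoproteins and markers of 14 cell types; P3h1, P3h2, P3h3, P3h4, Colgalt1, Glt25d2, Muc16 and Adgre1 matched no symbol. Alternatives were DESeq2 1.42.0, its size factors, library size scaling, no filter, a replicate block and leaving out each library.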

Additional observations from a re-analysis of the deposited data

How the results depend on the processing

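Counts of called members moved by more than 1.5 times under some alternatives, and the cause was not tested. For regenerating against wild type (1 as reported), DESeq2 called 7, the fit without a filter 5 and library size scaling 0. Of all genes, these called 2.73, 1.12 and 0.230%, beside 0.331% as reported. For knockout against regenerating (6), library size scaling called 2, with 1 higher and 1 lower, while it called 39.4% of all genes, beside 31.4% as reported. That scaling moved the median log2 fold change of all genes to -1.001 for knockout against wild type, -0.84 against regenerating and -0.17 for regenerating against wild type. For E12 against E11 (3), DESeq2 called 10 and the fit without a filter 5. Of all genes, these called 14.8 and 3.01%, beside 2.63% as reported. The share of all genes called also fell when 1 library of a compared group was left out in either knockout comparison. The same held for the steps from E12 to E14 and from E14 to E16. Leaving out 1 library gave 0 to 2 members for regenerating against wild type, 7 to 13 for knockout against wild type, 1 to 8 for knockout against regenerating, 1 to 6 for E12 against E11, 7 to 17 for E14 against E12, 20 to 31 for E16 against E14, 25 to 32 for E16 against E11 and 25 to 36 over all ages. Calls held in every alternative for 0 of 1, 6 of 15 and 1 of 6 members in the adult comparisons, and for 25 of 31 (E16 against E11), 1 of 3, 4 of 14 and 20 of 26 in the hindgut steps in order. Without the wild-type libraries, an alternative chosen after seeing the data, knockout against regenerating called 8. Without a mitochondrial limit, 24.2% of Day 8 barcodes had a member UMI.

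Same-numbered libraries did not deviate together (correlations across genes -0.0295 to 0.107), so the numbers do not pair them. A replicate block lowered knockout against wild type from 15 to 7 members and gave 1 for regenerating against wild type (not Lum), 4 for knockout against regenerating, and 28, 3, 13 and 26 for E16 against E11 and the 3 steps. For knockout against wild type the block called 31.3% of all genes, beside 36.2% as reported.

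Reversals were limited to members not called in that comparison. Log2 fold changes of knockout against wild type were -0.91 (library size) and -0.0048 (replicate block) for Col4a1, with -0.39 to 1.36 over fits leaving out 1 library, and -0.81 (library size) for Col8a1, with -1.52 to 0.88; Col18a1 ranged from -7.25 to 0.77 and Col16a1 from -1.28 to 0.20. Knockout against regenerating gave -0.21 (library size) for Col4a2, with -0.34 to 3.10. Regenerating against wild type ranged from -1.33 to 4.69 for Col3a1, -0.64 to 5.55 for Col4a2, -1.39 to 4.77 for Col1a1 and -1.59 to 0.028 for Col16a1. E16 against E14 for Col18a1 was 0.040 with DESeq2 and 0.040 with its size factors, with -0.36 to 0.34. E16 against E11 for Mgp ranged from -1.96 to 1.56. E12 against E11 ranged from -0.56 to 2.32 for Col1a1, -0.41 to 0.25 for Dcn, -3.39 to 7.98 for Lum, -0.22 to 0.021 for Sparc, -1.52 to 1.63 for Col3a1 and -0.18 to 2.29 for Col6a1. E14 against E12 ranged from -0.23 to 1.74 for Col6a1, -0.57 to 3.61 for Lum and -0.79 to 0.081 for Col6a2.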
